A study of Sus scrofa with 22 samples.

Results

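The genes of fatty acid oxidation and the targets of PPARA were followed in the jejunal mucosa of 22 Ossabaw pigs. The members were taken from a list of 36 gene symbols, and 35 of them were found by name among the 24358 genes of the deposited count files. ACOT2 was not analysed here. All 35 passed the filter on low counts, and the lowest count of a member in any library was 89, for ECI1. Fatty acids are activated to acyl-CoA, carried into mitochondria as carnitine esters, and shortened by repeated cycles of dehydrogenation, hydration, a second dehydrogenation and thiolysis. Peroxisomes shorten very long and branched chains and bile acid precursors by a related cycle and pass the products on. PPARA is a nuclear receptor that binds fatty acids and their derivatives and induces many of these enzymes. In the absorptive cells of the small intestine, which take up dietary fat, it is known to respond to lipids in the diet.

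The Ossabaw is a pig breed prone to obesity and insulin resistance when overfed. The diets were fed for 6 months, both with 38% of energy from fat, 47% from carbohydrate and 15% from protein. The Western pattern was built on butter fat, cholesterol and refined carbohydrate, and the heart healthy pattern on canola, soybean and corn oils, whole grains, fruit, vegetables and fibre. The drug, atorvastatin, inhibits cholesterol synthesis, and its daily dose was 20 mg over the first 3 months and 40 mg over the last 3. WD_S stands for the Western pattern with atorvastatin (7 pigs), HHD_S for the heart healthy pattern with atorvastatin (8 pigs) and HHD for the heart healthy pattern without it (7 pigs). Fish oil in capsules of 1000 mg, with 550 mg of EPA and 200 mg of DHA, was given 3 times per week to HHD_S and HHD pigs only, so the fish oil cannot be told apart from the pattern. Pigs on the Western pattern alone were not analysed here, and no comparison gives the diet without the drug. WD_S pigs are taken as treated because their own labels say so, although the series text ties the abbreviation in their titles to untreated pigs. The sex of each pig is not given in the labels used here.

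Libraries held 15.3 to 31.6 M unique exon reads, and 13626 genes were tested. Libraries carried the pool numbers 3 or 4, with 3 and 4 libraries of WD_S, 5 and 3 of HHD_S and 5 and 2 of HHD in the respective pools. All 12 enterocyte markers were detected, and their summed level was between 10287 and 25677 CPM (counts scaled to the library's total) per library. The lowest mean levels of these markers were in HHD 5, HHD_S 3 and HHD_S 8. Of 7 adipocyte markers, ADIPOQ, LEP, PLIN1 and PLIN4 reached at most 0.150, 0.0379, 0.654 and 0.571 CPM. CIDEC was at 20.2 to 109.6 CPM, LIPE at 7.04 to 26.3 and FABP4 at 1.21 to 6.16. In tissue samples of mixed cells, fewer cells of a type and less RNA per cell cannot be told apart. Levels are given as CPM scaled by the trimmed mean of M values (TMM) and are not divided by gene length, so they are compared between pigs and not between genes.

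No member differed between any pair of groups at an adjusted p of 0.05 in edgeR's quasi-likelihood test over all genes. In WD_S against HHD_S, which compared the dietary patterns with all pigs on atorvastatin, 0 of 35 members and 0% of all genes tested were called. Below an unadjusted p of 0.05 stood 2 members, HADHB and ACADVL, both lower in WD_S, beside 2.92% of all genes in either direction and 1.45% lower. In HHD_S against HHD, which compared atorvastatin with none under the heart healthy pattern, 0 members and 0% of genes were called. PEX11A alone had an unadjusted p under 0.05, with a lower level in HHD_S, beside 1.81% of all genes in either direction and 0.741% lower. In WD_S against HHD, where diet and drug differed at once, 0 members and 0.00734% of genes were called. SLC25A20, HADHA and HADHB had an unadjusted p under 0.05 and were lower in WD_S, beside 3.41% of all genes in either direction and 1.46% lower. Over the 3 groups together 0 members had an unadjusted p under 0.05, beside 2.13% of all genes, and HADHB had the smallest, at 0.0588.

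The smallest adjusted p of a member was 0.999 in WD_S against HHD_S and in HHD_S against HHD, and 0.9997 in WD_S against HHD. DESeq2 and limma with quality weights also called 0 members. The median log2 fold change of the members was 0.03 in WD_S against HHD_S, -0.01 in HHD_S against HHD and -0.02 in WD_S against HHD. Over all genes tested the corresponding medians were -0.01, 0.01 and -0.00. Positive fold changes were fitted for 21, 14 and 16 of the 35 members, beside 47.1%, 52.6% and 49% of all genes. Without the 3 libraries lowest in enterocyte markers, an alternative chosen after seeing the data, 13, 25 and 20 members were positive, and the median in HHD_S against HHD was 0.10. In pool 4 alone 8 members were positive in HHD_S against HHD, with a median of -0.19. The direction of the members as a set thus depended on the libraries used. The comparisons share libraries, and WD_S against HHD is the sum of the other comparisons.

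**Figure D1:**
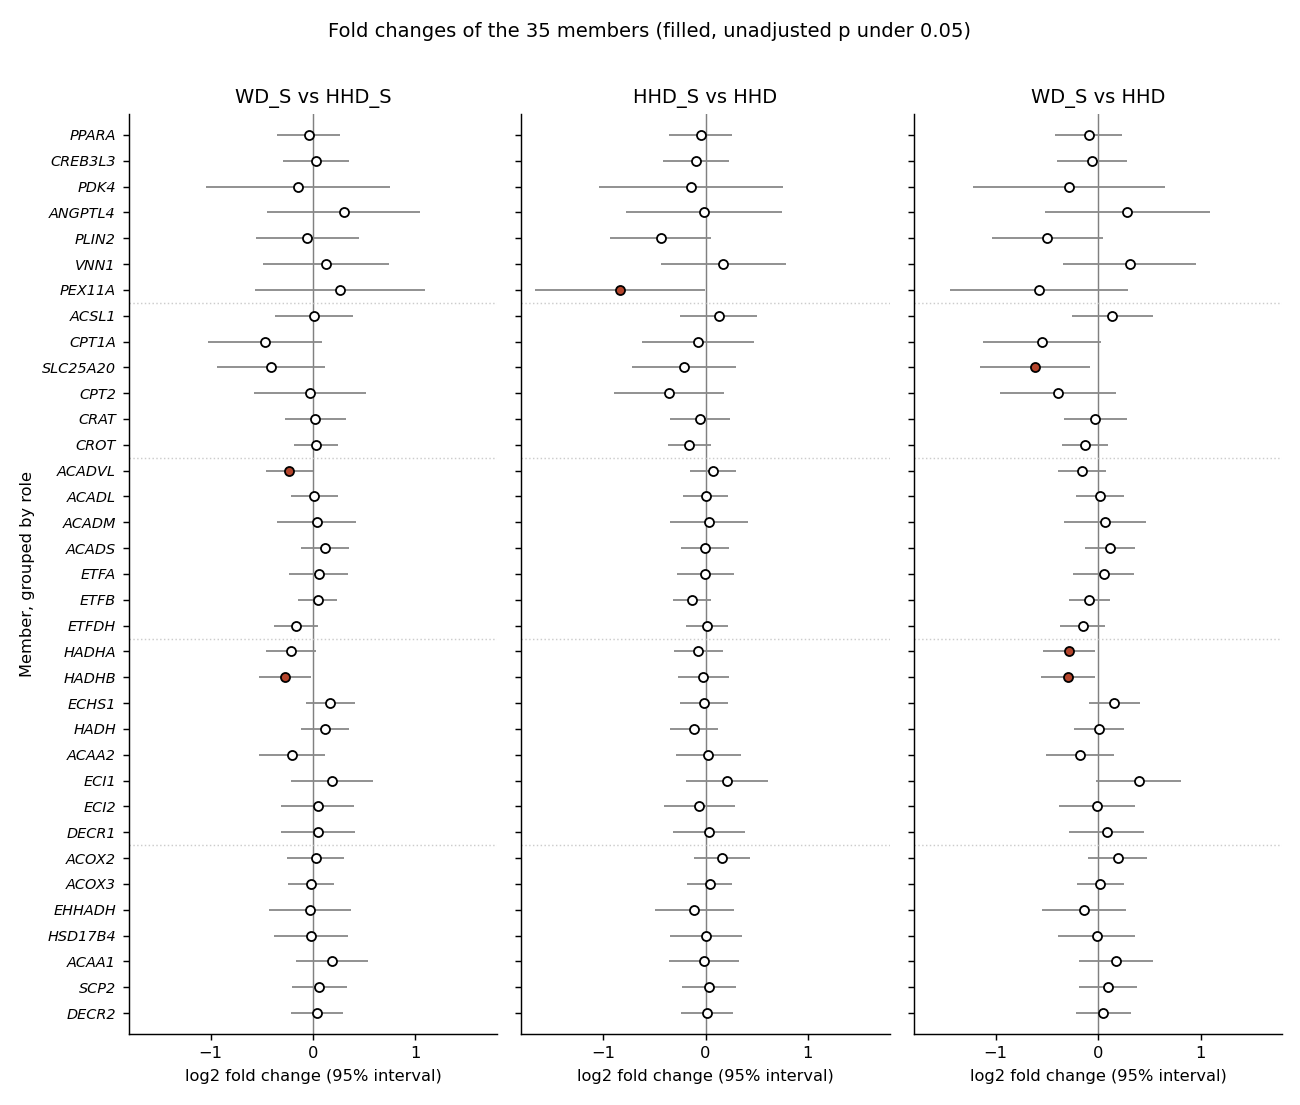
Fitted log2 fold change (horizontal axis) and 95% interval of the 35 members (vertical axis, grouped by role) in the 3 comparisons. Filled points mark an unadjusted p under 0.05, all of them below 0 (HADHB and ACADVL, then PEX11A, then SLC25A20, HADHA and HADHB), and none passed the adjusted threshold.

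PPARA itself and its partner CREB3L3, a liver and gut transcription factor of fasting and lipid metabolism, stood at like levels in the 3 groups. PPARA ran from 19.1 to 39.0 CPM in WD_S (median 32.0), from 19.3 to 38.2 in HHD_S (median 31.7) and from 27.5 to 36.7 in HHD (median 29.7). The 3 groups overlapped almost entirely. Its log2 fold change was -0.04 in WD_S against HHD_S, with a 95% interval from -0.35 to 0.27, and -0.05 in HHD_S against HHD, with an interval from -0.35 to 0.26. CREB3L3 had lowest, median and highest values of 709, 796 and 844 CPM in WD_S, 417, 803 and 986 in HHD_S, and 589, 777 and 1123 in HHD. The WD_S pigs sat in a narrow band inside the range of both heart healthy groups. The fitted log2 fold changes of CREB3L3 were 0.03 (WD_S against HHD_S) and -0.09 (HHD_S against HHD), with standard errors of 0.157 and 0.156.

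Among the smaller PPARA targets, spread between pigs of a group outweighed any shift between groups. PDK4, a kinase that turns off pyruvate dehydrogenase and so spares glucose, ran from 82.5 to 403 CPM in WD_S (median 233), from 89.8 to 473 in HHD_S (median 219.7) and from 79.0 to 595 in HHD (median 183). Every group held pigs from both ends of this range. Its 95% interval in WD_S against HHD_S, from -1.04 to 0.75 on the log2 scale, includes no difference as well as changes of more than 1.5-fold in either direction. ANGPTL4, a secreted inhibitor of lipoprotein lipase, ran from 97.5 to 171 CPM in WD_S (median 135), from 30.5 to 196 in HHD_S (median 107) and from 51.0 to 231 in HHD (median 90.5). All 7 WD_S pigs were above 95 CPM, whereas the heart healthy groups reached lower. The log2 fold change of ANGPTL4 in WD_S against HHD_S was 0.30 (SE 0.358), and it was 0.00 without HHD 5, HHD_S 3 and HHD_S 8, the libraries with the lowest enterocyte markers. In HHD_S against HHD the ANGPTL4 fold change was -0.45 on the log2 scale in pool 3 and 0.95 in pool 4.

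PLIN2, a coat protein of lipid droplets, ran from 16.4 to 36.1 CPM in WD_S (median 31.6), from 16.2 to 45.9 in HHD_S (median 29.9) and from 27.8 to 58.5 in HHD (median 43.3). The HHD median was the highest, and all groups overlapped. The log2 fold change of PLIN2 was -0.44 in HHD_S against HHD (SE 0.239, unadjusted p = 0.0800) and -0.50 in WD_S against HHD (SE 0.260, unadjusted p = 0.0695). Within pools the value in HHD_S against HHD was -0.63 in pool 3 and 0.05 in pool 4, and that in WD_S against HHD was -0.84 and 0.07. VNN1, a pantetheinase of the enterocyte surface, ran from 143 to 283 CPM in WD_S, from 71.7 to 301 in HHD_S and from 58.2 to 263 in HHD. Its medians of 187, 203 and 172 CPM differed by less than the spread within any group.

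PEX11A, a peroxisome membrane protein that takes part in peroxisome division, was the most variable member. It ran from 37.6 to 109.9 CPM in WD_S (median 47.5), from 19.5 to 132 in HHD_S (median 46.9) and from 33.0 to 258 in HHD (median 60.3). In each group the highest values stood apart from the rest: HHD 1, HHD 2 and HHD 4 were at 258, 144 and 114 CPM, and the other 4 HHD pigs at 60.3 or less. HHD_S 7 was at 132 CPM, and the other 7 HHD_S pigs at 52.6 or less. The log2 fold change in HHD_S against HHD was -0.84 (SE 0.398, 95% interval -1.66 to -0.01, unadjusted p = 0.0476, adjusted p = 0.999 in edgeR). It was -0.49 without HHD 1, with an unadjusted p of 0.1996. Without HHD_S 7 it was -1.13, with an unadjusted p of 0.00949. It was -0.87 in pool 3 alone and -0.83 in pool 4 alone. In this comparison negative log2 fold changes were also fitted for all 6 goblet cell markers (median -0.39), all 6 fibroblast markers (-0.35), all 8 smooth muscle markers (-0.19) and all 5 plasma cell markers (-0.17). All 6 T cell markers were positive (median 0.16), as were 9 of 12 enterocyte markers (0.08). Negative values were fitted for 6 of 7 markers of crypt and dividing cells (-0.12) and 6 of 9 macrophage markers (-0.04). They were also fitted for 2 of 3 adipocyte markers (-0.11) and 8 of 13 markers of mitochondrial content (-0.01). None of these markers was called. The goblet markers summed to a median of 2579 CPM in HHD_S (1449 to 4039) and 3931 in HHD (1829 to 4473). For the fibroblast markers the medians of the sum were 1385 CPM in HHD_S (503 to 1962) and 1904 in HHD (491 to 2630). The plasma cell markers summed to medians of 1484 CPM in HHD_S (859 to 2749) and 1922 in HHD (1273 to 2792), and the smooth muscle markers to 672 (277 to 1117) and 806 (289 to 958). Over the 22 pigs PEX11A had r = 0.58 with the goblet, 0.52 with the plasma cell, 0.29 with the fibroblast and 0.14 with the smooth muscle markers. It had r = 0.49 with the adipocyte, 0.37 with the crypt, 0.31 with the mitochondrial content and 0.30 with the macrophage markers. The adipocyte values rest on CIDEC, LIPE and FABP4, the 3 of 7 adipocyte markers that passed the filter on low counts. With the enterocyte and T cell markers r was 0.25 and -0.02. None passed an adjusted p of 0.05 in permutation tests. The part of these cells in the PEX11A value was not tested.

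**Figure D2:**
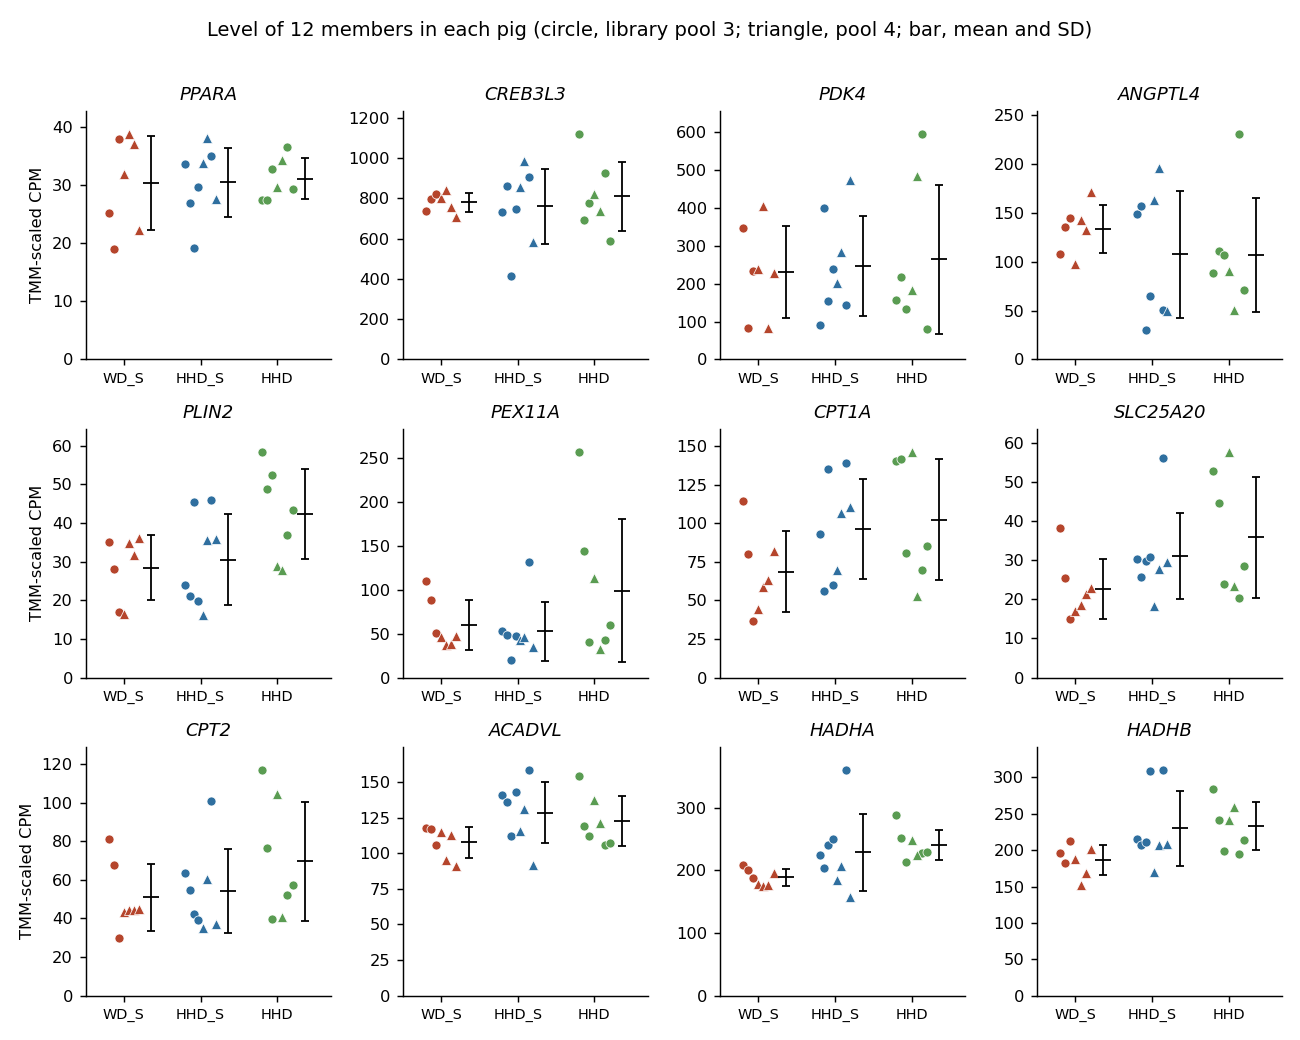
TMM-scaled CPM (vertical axis) of 12 members in every pig of the 3 groups (horizontal axis), with the mean and SD beside each group. The groups overlap for every gene shown except HADHA, whose 7 WD_S values (175 to 209) lie below the 7 HHD values (214 to 288).

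The carnitine shuttle brings long acyl chains into the mitochondrial matrix in 3 steps. CPT1A, on chromosome 2 (chr2:4250642-4293914, Sscrofa11.1), makes acylcarnitine at the outer membrane and is the controlled step. SLC25A20, on chromosome 13 (chr13:31523820-31553289), exchanges acylcarnitine for carnitine across the inner membrane. CPT2, on chromosome 6 (chr6:159038129-159061327), turns acylcarnitine back into acyl-CoA inside. All of them had negative fitted fold changes in each comparison, and 1 of these 9 values (SLC25A20 in WD_S against HHD) had an unadjusted p under 0.05.

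CPT1A ran from 36.6 to 115 CPM in WD_S (median 63.3), from 55.9 to 139 in HHD_S (median 99.7) and from 53.1 to 146 in HHD (median 85.1). The WD_S pigs lay lower on average, with wide overlap. Its log2 fold change was -0.47 in WD_S against HHD_S (SE 0.267, unadjusted p = 0.0922) and -0.55 in WD_S against HHD (SE 0.278, unadjusted p = 0.0621). In HHD_S against HHD it was -0.08, with a 95% interval from -0.62 to 0.47.

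SLC25A20 ran from 15.1 to 38.3 CPM in WD_S (median 21.3), from 18.3 to 56.1 in HHD_S (median 29.6) and from 20.3 to 57.7 in HHD (median 28.4). Of the WD_S pigs only WD_S 1, at 38.3 CPM, stood above the HHD median. The log2 fold change in WD_S against HHD was -0.62 (SE 0.259, 95% interval -1.16 to -0.08, unadjusted p = 0.0256, adjusted p = 0.9997 in edgeR). It was -0.33 with an unadjusted p of 0.1996 without HHD 4, the highest of the HHD pigs at 57.7 CPM. Without HHD 1, too, the unadjusted p of SLC25A20 in edgeR was not under 0.05. The value was -0.36 in pool 3 alone against -1.02 in pool 4 alone. The enterocyte markers had positive log2 fold changes for 11 of 12 genes in that comparison, beside 49% of all genes. Their median was 0.16, none was called, and their summed medians were 18405 CPM in WD_S and 16789 in HHD. With their mean as a covariate, fitted with a common slope for all groups, the SLC25A20 value was -0.63. Over the 22 pigs SLC25A20 had r = -0.08 with these markers, and -0.89, -0.25 and 0.51 within WD_S, HHD_S and HHD. It had r = 0.41 with the adipocyte, 0.37 with the goblet, 0.36 with the crypt and 0.33 with the plasma cell markers. With the macrophage and fibroblast markers r was 0.24 each, with T cell markers 0.09, and with smooth muscle and mitochondrial content markers 0.06 each. None passed an adjusted p of 0.05 in permutation tests. Negative values were fitted for 6 of 6 T cell, 7 of 8 smooth muscle, 6 of 7 crypt and 5 of 6 fibroblast markers. The same held for 4 of 6 goblet, 3 of 5 plasma cell, 3 of 3 tested adipocyte and 8 of 13 mitochondrial content markers. By contrast, 7 of 9 macrophage markers were positive. The part of these cells in the SLC25A20 value was not tested.

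CPT2 ran from 29.97 to 81.1 CPM in WD_S (median 44.6), from 35.1 to 101 in HHD_S (median 48.6) and from 39.9 to 117 in HHD (median 57.1). The groups overlapped over most of their range. Its log2 fold changes were -0.03 in WD_S against HHD_S, -0.36 in HHD_S against HHD and -0.39 in WD_S against HHD, with standard errors of 0.263, 0.259 and 0.272. The remaining members of this step are ACSL1, an acyl-CoA synthetase, CRAT, which handles acetyl groups, and CROT, the peroxisomal transferase for shortened chains. CROT ran from 74.7 to 109.7 CPM in WD_S (median 87.0), from 71.3 to 102 in HHD_S (median 87.1) and from 80.9 to 116 in HHD (median 99.2). The HHD median was the highest, within the overlap of all groups, and the log2 fold change in HHD_S against HHD was -0.16 (SE 0.101, unadjusted p = 0.134). For ACSL1 and CRAT the log2 fold changes lay between -0.05 and 0.14 over the 3 comparisons.

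The acyl-CoA dehydrogenases open each cycle, and each takes chains of a different length. ACADVL, for very long chains, ran from 91.3 to 117 CPM in WD_S (median 113), from 91.5 to 159 in HHD_S (median 134) and from 106 to 154 in HHD (median 119). The upper end of WD_S lay below the HHD_S median, and HHD_S 8 was as low as the lowest WD_S pig. The log2 fold change in WD_S against HHD_S was -0.23 (SE 0.109, 95% interval -0.45 to -0.00, unadjusted p = 0.0472, adjusted p = 0.999 in edgeR). Leaving out single libraries gave values from -0.30 to -0.19 and unadjusted p-values up to 0.117. Without the 3 libraries with the lowest enterocyte markers the value was -0.33 with an unadjusted p of 0.00465, and it was -0.27 in pool 3 alone and -0.12 in pool 4 alone. ACADM, for medium chains, ran from 129 to 250.1 CPM in WD_S (median 162), from 93.1 to 279 in HHD_S (median 166) and from 126 to 200.0 in HHD (median 166). Its medians were nearly equal, and its log2 fold changes were between 0.03 and 0.07. ACADL, for long chains, and ACADS, for short chains, had log2 fold changes from -0.00 to 0.12.

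Electrons from these enzymes pass through the flavoprotein of ETFA and ETFB to the membrane enzyme ETFDH. ETFB and ETFDH varied least of all members between pigs of a group. ETFB ran from 71.8 to 92.8 CPM in WD_S (median 79.9), from 61.1 to 92.7 in HHD_S (median 78.0) and from 76.0 to 96.0 in HHD (median 82.6). The groups overlapped, and the log2 fold change in HHD_S against HHD was -0.13 (SE 0.0908, unadjusted p = 0.157). ETFDH had log2 fold changes of -0.16 in WD_S against HHD_S and -0.15 in WD_S against HHD, with unadjusted p-values of 0.125 and 0.171.

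The trifunctional protein carries out the later steps of the cycle on long chains, and HADHA and HADHB encode its alpha and beta subunits. Both genes lie side by side on chromosome 3, HADHB at chr3:112712894-112753121 and HADHA at chr3:112753343-112797627 (Sscrofa11.1), with 221 bases between the annotated spans. HADHA was at 175 to 209 CPM in WD_S (median 188), 157 to 361 in HHD_S (median 216) and 214 to 288 in HHD (median 229.9). Every WD_S pig was below every HHD pig, by a margin of 209 against 214 CPM at the closest, while HHD_S spanned both. It was the only member whose groups did not overlap in any comparison. Over all genes tested, the groups did not overlap in 0.0661% of genes in WD_S against HHD and in 0.0147% in each of the other comparisons.

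HADHB was at 151 to 213 CPM in WD_S (median 188), 170.1 to 311 in HHD_S (median 210.0) and 195 to 285 in HHD (median 241). Its WD_S values reached up into the lower part of both other groups. In WD_S against HHD the log2 fold change was -0.28 for HADHA (SE 0.122, 95% interval -0.54 to -0.03, unadjusted p = 0.0289). For HADHB it was -0.29 (SE 0.128, 95% interval -0.56 to -0.03, unadjusted p = 0.0319), and the edgeR adjusted p of each gene was 0.9997. Neither gene passed the threshold adjusted over all genes. With HHD 1 left out, 0 of 35 members, HADHA and HADHB included, had an unadjusted p under 0.05 in this comparison in edgeR. That count was 1 without WD_S 2, WD_S 3 or HHD 4, and 2 to 5 without any other single library. In WD_S against HHD_S the values were -0.22 for HADHA (unadjusted p = 0.0811) and -0.27 for HADHB (unadjusted p = 0.0383). HADHA gave -0.12 in that comparison without HHD_S 7, the pig at 361 CPM, and HADHB gave -0.21 with an unadjusted p of 0.0844. Within pools, WD_S against HHD gave -0.28 and -0.38 for HADHA and -0.20 and -0.49 for HADHB, in pool 3 and pool 4. In WD_S against HHD_S the values were -0.35 and -0.01 for HADHA and -0.33 and -0.14 for HADHB, in the same order. HADHA was also lower in pool 4 than in pool 3 by a fitted log2 value of -0.23 (unadjusted p = 0.0294).

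The other enzymes of these steps had fitted values on both sides of 0. ECHS1 hydrates short chains, HADH dehydrogenates short chains and ACAA2 is a mitochondrial thiolase. ECI1, ECI2 and DECR1 handle the unsaturated bonds of dietary oils, such as those of the heart healthy pattern. In WD_S against HHD the fitted log2 fold changes were 0.16 for ECHS1, 0.01 for HADH, -0.18 for ACAA2, -0.01 for ECI2 and 0.08 for DECR1, each with an unadjusted p above 0.2. ECI1 ran from 4.35 to 11.9 CPM in WD_S (median 7.89), from 4.95 to 10.5 in HHD_S (median 7.40) and from 4.84 to 7.55 in HHD (median 6.79). The WD_S pigs reached higher than the HHD pigs but also lower. The log2 fold change of ECI1 in WD_S against HHD was 0.40 (SE 0.201, unadjusted p = 0.0613), with 0.64 in pool 3 and 0.03 in pool 4.

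None of the 7 peroxisomal members had an unadjusted p under 0.05 in any comparison. EHHADH, the bifunctional enzyme for straight chains, ran from 160.4 to 266 CPM in WD_S (median 206), from 144 to 313 in HHD_S (median 236) and from 165 to 327 in HHD (median 238). HSD17B4, the bifunctional enzyme that also takes branched chains and bile acid precursors, ran from 146 to 285 CPM in WD_S (median 182), from 133 to 308 in HHD_S (median 189) and from 147 to 235 in HHD (median 199). The groups of both genes overlapped throughout. In WD_S against HHD_S the log2 fold change was -0.03 for EHHADH (95% interval -0.43 to 0.37) and -0.02 for HSD17B4 (-0.38 to 0.34). ACOX2 and ACOX3 are oxidases of branched chains, ACAA1 and SCP2 have thiolase activity, and DECR2 is the peroxisomal counterpart of DECR1. Over the 7 peroxisomal members and the 3 comparisons the log2 fold changes lay between -0.14 and 0.19, and the smallest unadjusted p was 0.192.

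Members differed widely in how much they varied between pigs of a group. The coefficient of variation of CPM within groups, averaged over the 3 groups, was 64.3% for PEX11A and 59.9% for PDK4. Both were above the 97th percentile of all genes tested. ANGPTL4 followed with 44.3%, CPT2 with 39.5%, SLC25A20 with 37.5%, CPT1A with 36.7% and VNN1 with 36.3%. At the other end stood ETFB with 10.4%, ETFDH with 12.3% and CROT with 12.8%. The median over the members was 19.2%, beside 20.1% over all genes tested. From the lowest to the highest of the 22 pigs, PEX11A spanned 13.2-fold, ANGPTL4 7.56-fold, PDK4 7.53-fold and HADH 1.60-fold.

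**Figure D3:**
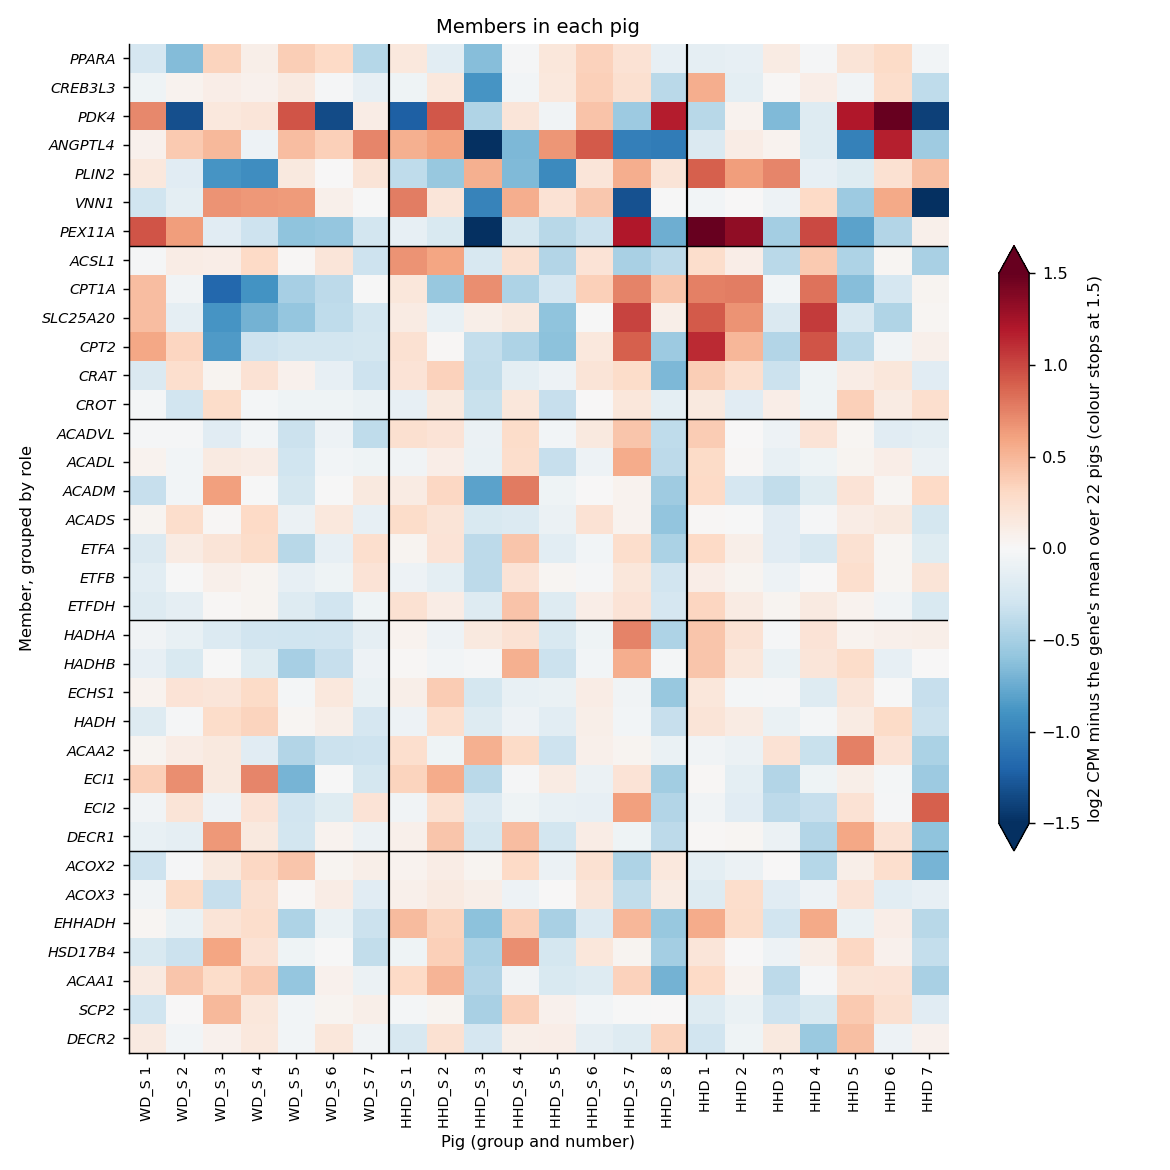
The 35 members (rows, grouped by role) in the 22 pigs (columns, grouped by diet label), as log2 CPM minus the mean of each gene over all pigs, with colours ending at 1.5. CPT1A, SLC25A20, CPT2 and PEX11A are high together in WD_S 1, HHD_S 7, HHD 1, HHD 2 and HHD 4, while PDK4 and ANGPTL4 vary in other pigs.

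The highest levels of the shuttle genes and of PEX11A fell largely in the same pigs, found under each diet label but most of them in HHD. HHD 1, HHD 2, HHD 4, HHD_S 7 and WD_S 1 held the 5 highest values of CPT2, of SLC25A20 and of PEX11A among the 22 pigs, and ranked within the highest 6 for CPT1A. The fifth rank for CPT1A belonged to HHD_S 3, which had rank 16 for CPT2 and rank 22 for PEX11A. HHD_S 8 had rank 7 for CPT1A and rank 20 for both CPT2 and PEX11A. In HHD 1 the values were 140.0 CPM for CPT1A, 52.7 for SLC25A20, 117 for CPT2 and 258 for PEX11A. HHD_S 7 had 139 CPM for CPT1A, 56.1 for SLC25A20, 101 for CPT2 and 132 for PEX11A. In WD_S 3, by contrast, CPT1A, SLC25A20 and CPT2 were each at their lowest, with 36.6, 15.1 and 29.97 CPM, and PEX11A was at 50.9 CPM. These genes lie on different chromosomes, PEX11A on chromosome 7 (chr7:55256239-55264253).

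Over the 22 pigs, the Pearson correlation of log2 CPM was 0.86 between CPT1A and SLC25A20, 0.85 between CPT2 and SLC25A20 and 0.85 between CPT2 and PEX11A. Each had a two-sided permutation p of 1e-05, the smallest that 100000 permutations can give, and an adjusted p of 0.000661 over all 595 pairs of members. Without the 2 pigs farthest from the median of the first gene, the values were 0.81, 0.77 and 0.78. Within the 3 groups, r for CPT2 and PEX11A was 0.79 in WD_S, 0.77 in HHD_S and 0.94 in HHD. Within pools it was 0.84 and 0.90. For CPT1A and SLC25A20 the value was lower in HHD_S, 0.58, than in WD_S, 0.96, and in HHD, 0.93, a difference that was not tested. PLIN2 also went with CPT1A (r = 0.71, permutation adjusted p = 0.00443), more closely in WD_S (0.82) and HHD_S (0.92) than in HHD (0.38), again with the difference not tested. PDK4 did not share the pattern: its correlation with CPT1A was -0.23 (permutation p = 0.313).

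**Figure D4:**
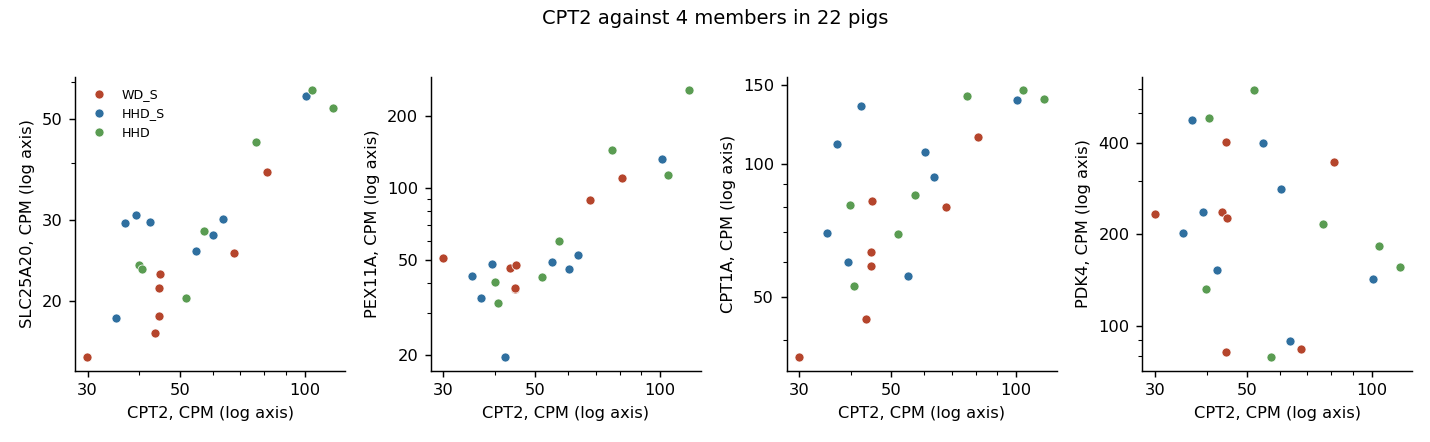
CPM of SLC25A20, PEX11A, CPT1A and PDK4 (vertical axes, log scale) against CPM of CPT2 (horizontal axes, log scale) in 22 pigs, coloured by group. Each of the first 3 genes was higher in pigs with more CPT2 (r = 0.85 for SLC25A20 and for PEX11A), and PDK4 shows no such order.

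Many genes outside the list also went with CPT2. Of all genes other than CPT2, 94 (0.690%) had r of at least 0.8 with CPT2, SLC25A20 and PEX11A among them, and 9.41% had r of at least 0.5. With the mean level of 10 marker lists, from enterocytes to fibroblasts and mitochondrial content, 0 of 40 correlations of CPT1A, CPT2, SLC25A20 and PEX11A passed an adjusted p of 0.05. The nearest was CPT2 with the goblet cell markers (r = 0.62, permutation adjusted p = 0.0804). All correlations are over the same 22 libraries and share their scaling and depth.

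Of the 8 pairs of members set by their roles, 5 were correlated beyond an adjusted p of 0.05 in permutation tests over those 8. The subunits HADHA and HADHB had r = 0.80 (adjusted p = 8e-05). The CPM ratio of HADHA to HADHB stayed between 0.752 and 1.17 over the 22 pigs, with medians of 1.05, 1.02 and 1.04 in WD_S, HHD_S and HHD. ETFA correlated with its partner ETFB at r = 0.71 (adjusted p = 0.00104) and with its acceptor ETFDH at r = 0.70 (adjusted p = 0.0012). The peroxisomal bifunctional enzymes EHHADH and HSD17B4 had r = 0.65 (adjusted p = 0.00218). PPARA and CREB3L3 had r = 0.51 (adjusted p = 0.0278), and 0.35 without the 2 pigs farthest from the median of PPARA, WD_S 2 and HHD_S 3. It was 0.48 in pool 3, which holds both of these pigs, and 0.60 in pool 4. Within groups it was 0.55 in WD_S, 0.88 in HHD_S and 0.04 in HHD. The pairs of PPARA targets among these 8 did not pass. Their r was -0.23 for CPT1A with PDK4, 0.09 for PDK4 with ANGPTL4 and -0.27 for ANGPTL4 with PLIN2. The permutation adjusted p-values were 0.358, 0.677 and 0.297. The positive correlations of CPT1A with SLC25A20 and with PLIN2, given above, are outside these 8 pairs.

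Among all 595 pairs, 423 correlations were positive, and 112 passed an adjusted p of 0.05, 100 positive and 12 negative. The median r was 0.23. Shares over pairs of all genes are not given here, so these counts are not read as particular to the members. The closest pairs were ACAA1 with ECI1 (r = 0.88), ACADS with ECHS1 (0.87), HSD17B4 with DECR1 (0.82), and ACADS with CRAT and with ACAA1 (0.81 each), beside the pairs above. These join enzymes of short chains, of unsaturated chains and of peroxisomes. EHHADH was in 15 of the pairs that passed and ETFA in 13, whereas PPARA, PDK4 and ACOX3 were in 0. For PPARA the 34 correlations lay between -0.39, with CPT1A, and 0.51, with CREB3L3. The lowest correlation of all pairs was -0.74, between CPT1A and SCP2 (permutation adjusted p = 0.00154), and it was -0.88, -0.68 and -0.69 within WD_S, HHD_S and HHD. CPT1A was also negatively correlated with DECR2 (-0.60), DECR1 (-0.58) and ACOX2 (-0.55).

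**Figure D5:**
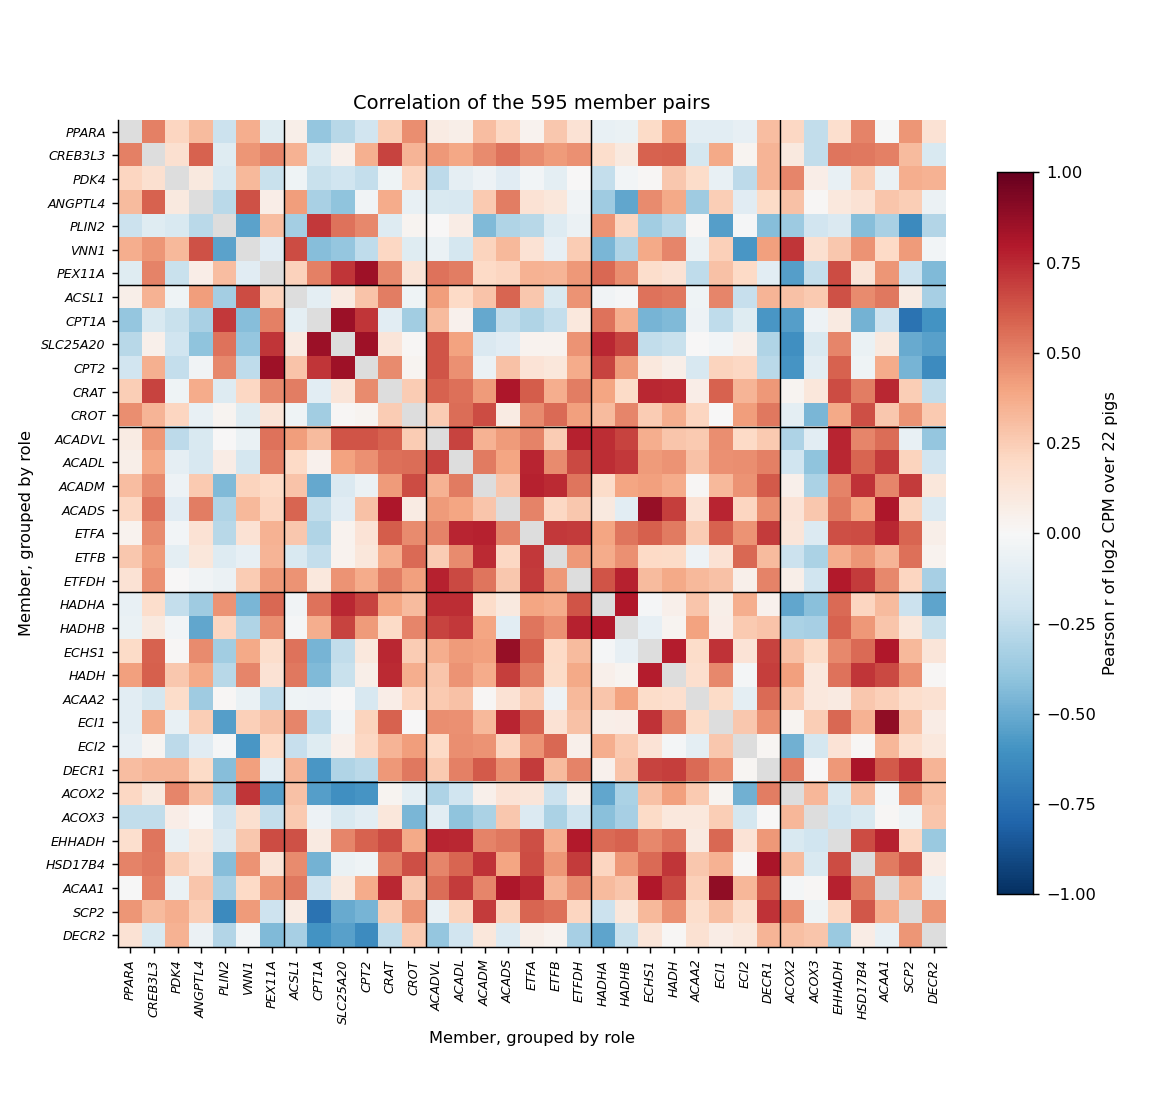
Pearson r of log2 CPM over 22 pigs for every pair of the 35 members (both axes, grouped by role), from -1 (blue) to 1 (red). Values are high for CPT1A with SLC25A20, and for CPT2 with SLC25A20 and with PEX11A. They are also high for ACAA1 with ECI1, and for ACADS with ECHS1 and with ACAA1. CPT1A with SCP2 is the lowest at -0.74.

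Against the mean level of the enterocyte markers, 3 of 35 members correlated beyond an adjusted p of 0.05 in permutation tests. These were ACSL1 (r = 0.75, adjusted p = 0.00175), VNN1 (r = 0.68, adjusted p = 0.0142) and ANGPTL4 (r = 0.64, adjusted p = 0.0173). On ranks, the permutation adjusted p was 0.0007 for ACSL1, 0.00105 for VNN1 and 0.0689 for ANGPTL4, and EHHADH passed with 0.0440 (rho = 0.60). With total counts in place of TMM, r for VNN1 was 0.56 and no longer past the threshold. Without the 2 pigs farthest from the median of the member itself, r was 0.71 for ACSL1, 0.79 for VNN1 and 0.54 for ANGPTL4. Within pools 3 and 4 it was 0.80 and 0.75 for ACSL1, 0.79 and 0.87 for VNN1, and 0.72 and 0.60 for ANGPTL4. Inside the groups ANGPTL4 had r = -0.14 in WD_S, 0.83 in HHD_S and 0.63 in HHD. The median over the members was 0.19, and 23 of 35 were positive. The share of all genes that goes with these markers is not given here, so these counts are not read as particular to the members.

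Other genes of the pathway were followed through a list of 95 genes, of which 88 were in the files and 80 were tested, with 0 called in each comparison. Under an unadjusted p of 0.05 stood 0 of 80 in WD_S against HHD_S, 3 in HHD_S against HHD and 4 in WD_S against HHD, beside 2.92%, 1.81% and 3.41% of all genes. The smallest p in WD_S against HHD_S belonged to OXCT1, an enzyme of ketone body use (log2 fold change 0.20, unadjusted p = 0.0529), and PEX2, a peroxisome assembly factor (-0.20, unadjusted p = 0.0863). In HHD_S against HHD they belonged to PECR, a peroxisomal enoyl-CoA reductase (-0.34, unadjusted p = 0.0328), and ABHD5, the activator of the triglyceride lipase PNPLA2 (-0.66, unadjusted p = 0.0370). ABHD5 was at 20.7 to 73.6 CPM in HHD_S (median 36.4) and 23.1 to 124 in HHD (median 45.1), with its highest values in HHD_S 7 and HHD 1.

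In WD_S against HHD the smallest p-values were those of PNPLA2 (log2 fold change 0.59, unadjusted p = 0.0171) and of PHYH, which prepares phytanic acid for peroxisomal oxidation (-0.73, unadjusted p = 0.0257). PNPLA2 was at 39.7 to 93.2 CPM in WD_S (median 68.0) and 32.8 to 61.3 in HHD (median 43.1). The WD_S median lay above every HHD pig, and the ranges overlapped. PHYH was at 8.51 to 17.0 CPM in WD_S (median 14.0) and 11.1 to 57.1 in HHD (median 15.6), where HHD 5 held the highest value. None of these genes passed an adjusted p of 0.05 in edgeR.

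Between pool 4 and pool 3, 0 of 35 members and 0% of all genes were called. Fitted log2 fold changes were negative for 25 of 35 members, with a median of -0.12. The share of negative values over all genes is not given here. Negative values were also fitted for 48 of 80 other pathway genes (median -0.03) and 12 of 13 markers of mitochondrial content (-0.07). So were those of 6 of 6 goblet and 6 of 6 fibroblast markers, while 7 of 12 enterocyte markers were positive. ACADL and HADHA had an unadjusted p under 0.05, both lower in pool 4 (log2 fold changes -0.22 and -0.23), beside 4.42% of all genes.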

How the data were processed

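Jejunal mucosa RNA of 22 pigs was sequenced as single reads of 150 bases after selection for an RNA quality indicator above 8, per the labels' protocols. Per the labels' protocols, the authors processed the reads with CLC software on the Sscrofa11.1 genome. Mapping settings: not given in the sources used here. What was deposited for each library is 1 count per gene, of exon reads that map uniquely, per the file headers. Reads that match several places are not in such counts, so members with near-identical copies would be understated. The kit named in the labels does not mark strand.

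Groups followed the diet label. The test was that of edgeR 4.0.16 (R 4.3.3): filterByExpr (minimum count 10), TMM scaling, and a robust quasi-likelihood fit of all 3 groups with an additive term for the library pool, a number in the deposited files' names. Of the genes, 13626 were tested, on 18 residual degrees of freedom, and the biological coefficient of variation was 25.9%. P values were adjusted by Benjamini and Hochberg over all genes. Correlations used log2 CPM (prior count 2) and two-sided tests of 100000 permutations, adjusted within each family. All 231 pairs of libraries differed beyond sampling noise (smallest reduced chi-square 28.6). Nothing in the labels used here pairs pigs across groups. The fit was also run on simulated counts, and the outcome is not given here.

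The members and lists were chosen with earlier results of these data known. Named with their values were 15 members set by role, the 4 members with the smallest p in each comparison, and the 2 other pathway genes with the smallest p. The member pairs beyond the 8 set by role, the marker lists beside the enterocyte list, the likeness of all genes to CPT2 and the fit without 3 libraries low in enterocyte markers were added after the data were seen. The alternatives were no pool term, either pool alone, RLE scaling, total counts, DESeq2 1.42.0, limma 3.58.1 with quality weights, 2 filters, only the groups compared, an enterocyte marker covariate and leaving out each library. A search of promoters for receptor motifs was not run, and no sequences were used here. Coordinates are those of the RefSeq annotation of Sscrofa11.1, matched by symbol for all 35 members.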

Additional observations from a re-analysis of the deposited data

Results flagged for a closer look

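Over the 35 members and 3 groups, 9 of 105 sets of values held a pig whose gap to its nearest neighbour was large against the range of its group, where chance flags about 5%. HHD_S 7 gave 4 of them: it was the highest of its group for CPT2 (100.7 CPM, the others 35.1 to 63.5), SLC25A20 (56.1 CPM, the others 18.3 to 30.8), PEX11A (132 CPM, the others 19.5 to 52.6) and HADHA (361 CPM, the others 157 to 250.4). WD_S 3 gave 3: it was the highest of its group for ACADM (250.1 CPM, the others 129 to 181), DECR1 (167 CPM, the others 87.7 to 118) and CROT (109.7 CPM, the others 74.7 to 89.3), and at the same time the lowest of all pigs for CPT1A, SLC25A20 and CPT2. HHD 6 was the highest of its group for ANGPTL4 (231 CPM, the others 51.0 to 111), and HHD 7 for ECI2 (42.6 CPM, the others 17.3 to 26.6).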

How the results depend on the processing

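In each of the 34 alternatives 0 members were called, and the smallest adjusted p of a member in any of them was 0.384. Of 3570 fold changes of members under the alternatives, 13 moved by more than the spread between pigs, and the median in HHD_S against HHD became -0.19 in pool 4 alone and 0.10 without the 3 libraries lowest in enterocyte markers. Counts of all genes called were more variable. In WD_S against HHD_S (0 in the report) they were 2 with no pool term, 4 by DESeq2, 1 by limma, 1 without the 3 libraries lowest in enterocyte markers (an alternative chosen after seeing the data), and 0 to 2 with single libraries left out, 1 without WD_S 3, HHD 7 or HHD_S 8 and 2 without WD_S 7. In HHD_S against HHD DESeq2 called 1. In WD_S against HHD (1 in the report) and over the 3 groups (1), 0 were called in pool 3 alone, in pool 4 alone, with total counts and with the enterocyte covariate, 2 and 3 by DESeq2, and 0 to 1 with single libraries left out. The cause was not tested.

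With total counts in place of TMM, the correlation of PPARA with CREB3L3 was 0.36 and that of VNN1 with the enterocyte markers 0.56, both no longer past the threshold, whereas DECR2 (-0.62), ACAA2 (-0.62) and CROT (-0.57) passed it. EHHADH passed it (0.57) when values were centred within groups. No paired analysis was possible because the labels give no replicate numbers shared between groups. Depth was least for ECI1, with at least 89 counts in every library.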

Other observations

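The other genes of the pathway were set beside CPT2 as a description chosen after seeing the data. ACOT4, a peroxisomal acyl-CoA thioesterase, had r = 0.89 with CPT2 over 22 pigs, higher than 99.9% of all genes tested, and 0.87, 0.91 and 0.96 within WD_S, HHD_S and HHD. It was at 10.4 to 25.7 CPM in WD_S, 13.5 to 29.7 in HHD_S and 12.7 to 30.4 in HHD, with its highest values in WD_S 1, HHD_S 7 and HHD 1. MLYCD, which removes the malonyl-CoA that inhibits CPT1A, had r = 0.76, ABHD5 had 0.74 and the peroxisome import factor PEX14 had 0.69. At the other end were PPARGC1A, a coactivator of PPARA and of mitochondrial genes, with r = -0.68, the nuclear receptor coactivator NCOA1 with -0.55 and the muscle type transferase CPT1B with -0.55. PPARGC1B, the relative of PPARGC1A, had r = 0.62. The correlation of PPARGC1A with CPT2 was -0.88, -0.62 and -0.57 within WD_S, HHD_S and HHD. In the same order it was -0.85, 0.67 and -0.76 for NCOA1, and 0.04, 0.67 and 0.97 for ABHD5. For NCOA1 it was -0.32 without the 2 pigs farthest from the median of CPT2. ACOT4, MLYCD, PEX14, CPT1B and PPARGC1B kept their sign in each group.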
